A study of Mus musculus with 18 samples.

Results

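Complement and coagulation factors are plasma proteins made largely by the liver, and 42 genes that encode them were followed here across 18 mouse liver libraries. The genes were chosen by symbol, from the classical, lectin, alternative and terminal branches of complement, its regulators and receptors, and the clotting, contact, anticoagulant and fibrinolytic factors. All 42 symbols were found, each as 1 of the 55385 genes in the deposited tables, and all 42 passed the filter on low counts. The mice fell into 3 groups of 6 with 3 males and 3 females each. Dp16 mice, 17.1 to 18 weeks old, carry an extra copy of a segment of chromosome 16 (positions 75540514 to 97962622, build GRCm38) and serve as a model of trisomy 21. Dp16-2xIFNRs mice, 17.7 to 18 weeks old, carry that segment but, by the genotype's name, only 2 copies of the interferon receptor genes that lie inside it; the labels do not say how the extra copies were removed. Wild-type (WT) mice were C57BL/6J, 17.1 to 18 weeks old, and the labels record no treatment. RNA came from liver tissue, so it mixes hepatocytes with macrophages and other cells.

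Complement is a cascade of proteases and pore-forming proteins that tags and lyses microbes. The classical, lectin and alternative routes all lead to cleavage of C3 and C5, after which C6, C8 and C9 help build the membrane attack complex. Coagulation is a related protease cascade that ends in thrombin and fibrin, held in check by antithrombin, protein C and protein S, with plasmin dissolving the clot. Hepatocytes secrete most of these factors, while C1q and properdin come mainly from macrophages and other myeloid cells, and many liver-secreted proteins of rodents differ by sex under the control of growth hormone.

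Total counts per library ran from 38236222 to 59923315, and the 42 genes together took 2.18% to 3.3% of the counts in Dp16, 2.05% to 2.91% in Dp16-2xIFNRs and 2.15% to 3.44% in WT livers. The sex labels held in 18 of 18 libraries, judged by Ddx3y and Xist. Dp16 library 4, a male, and Dp16 library 5, a female, stood apart from the other 16 by their TMM scaling factors of 0.8026 and 1.338. The receptor genes followed the genotype labels in direction. Their log2 differences over WT were 0.58 for Ifnar1, 0.52 for Ifnar2, 0.75 for Il10rb and 0.39 for Ifngr2 in Dp16. For the same genes they were 0.05, 0.15, 0.16 and -0.05 in Dp16-2xIFNRs livers. None reached an adjusted p under 0.05 in Dp16 over WT (0.28, 0.246, 0.397 and 0.999 in the same order, edgeR). All 7 hepatocyte markers were measured, with a summed level of 75839 to 115971 CPM in Dp16, 78122 to 129676 CPM in Dp16-2xIFNRs and 81455 to 120992 CPM in WT livers. CPM are counts scaled to a common library size with the TMM factors, for comparison within a gene. The labels do not say how the mice were related, so p-values measure the spread between these animals.

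The 42 genes lay on 16 chromosomes. Masp1, Kng1, Kng2, Pros1 and Serpind1 lie on chromosome 16, all outside the triplicated segment, at distances of 12.6 megabases for Pros1 and 52.0 to 58.2 megabases for the other 4. None of the 42 was therefore triplicated itself. Some sit next to each other: C8a and C8b are 11.1 kilobases apart on chromosome 4 on opposite strands, C6 and C9 are 1.63 megabases apart on chromosome 15, and the 3 C1q genes lie within a few kilobases of each other on chromosome 4. Exons of 9 members overlap those of another gene, and how reads in such exons were counted is not stated. Masp2 overlaps Tardbp over 54.9% of the member's exons and Serpinc1 overlaps Zbtb37 over 34.4%, both on opposite strands. On the same strand, Cfb overlaps Gm20547 over 79.5%, C2 overlaps Gm20547 over 42.8% and Klkb1 overlaps Gm45753 over 43.2%. Gm20547 held 4 counts and Gm45753 28 counts in total over all libraries. The overlaps of C1s1, Plg, F5 and Hc covered 1.21% to 18.4% of their exons. Whether the authors counted reads by strand is not known from the labels.

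Levels between genes were compared in RPKM, the authors' counts scaled to gene length and library total. The deposited values carry the name of a later GENCODE release than the M21 used here for exons and positions. The lengths implied by these values were close to the exon bases of GENCODE M21 for some genes, such as C3 (5136 against 5143). They were shorter for others, such as F2 (1988 against 4594), C4bp (3045 against 6730) and Serpinc1 (5045 against 8546). The order below therefore depends on the lengths used and, for members such as C2, on how reads in shared exons were counted. Vtn, which encodes the adhesive plasma protein vitronectin that also caps the terminal complement complex, was highest, at a median of 1535 RPKM over the 18 libraries (range 1211 to 1859). It ranked 50 among all genes of the table. F2, which encodes prothrombin, followed at 1103 RPKM (765 to 1249.7), then the central complement gene C3 at 927 RPKM (317 to 2109), the kininogen gene Kng1 at 766 RPKM (573 to 981) and the plasminogen gene Plg at 709 RPKM (348 to 1063). Neighbours in this order overlapped in their range over libraries all the way down to C2, at 11.9 RPKM (7.67 to 17.8). Only below C2 was there a gap. The receptors C5ar1, at 0.691 RPKM (0.152 to 1.12), and C3ar1, at 0.575 RPKM (0.333 to 0.917), which myeloid cells carry to sense the fragments C5a and C3a, were the lowest. The coefficient of variation of the RPKM over the 18 libraries was 79.4% for C8a, 71.9% for C8b, 60.8% for F5 and 54.2% for C9, all below that of C6, whose highest library held 132 RPKM and whose lowest held 3.5 RPKM. Within sex and genotype, a coefficient was computed by another formula, from the pooled variance of log RPKM. This was 34.0% for C6, 35.6% for C8a, 29.4% for C8b and 12.1% for C9, but 62.9% for F5. The coefficient over the 18 libraries was lowest for Masp2, at 10.2%, and F9, at 10.8%.

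**Figure D1:**
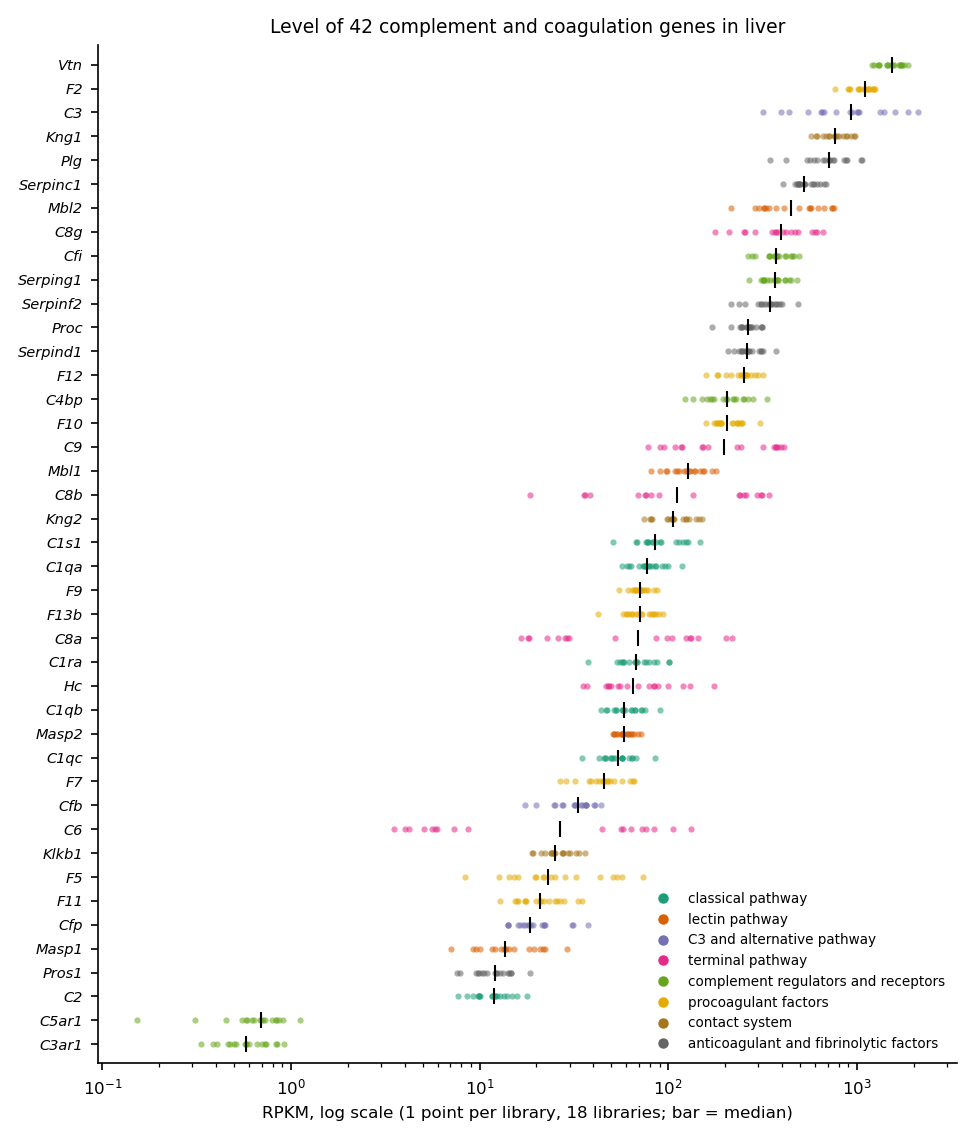
Each row is 1 of the 42 genes, with 1 point per library (18 libraries) on a log axis of RPKM, a bar at the median and colour by role. Vtn leads at a median of 1535 RPKM, C5ar1 and C3ar1 lie below 1.2 RPKM, and C6, C8a, C8b and F5 have the widest spread, with coefficients of variation of 60.8% or more.

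The first question was whether the extra segment, with or without the extra interferon receptors, changed the liver's complement and coagulation transcripts. No gene of the 42 passed in any of the genotype comparisons, tested with edgeR's quasi-likelihood test with sex as a term and Benjamini-Hochberg adjustment over 15208 genes. Dp16 against WT called 0.0395% of all genes tested, Dp16-2xIFNRs against WT 0.0986%, Dp16-2xIFNRs against Dp16 0% and both carrier groups together against WT 0.204%. At an unadjusted p under 0.05 there was no member in Dp16 against WT (4.87% of all genes), C9, higher, in Dp16-2xIFNRs against WT (8.66% of all genes, 3.43% higher), F5, lower, in Dp16-2xIFNRs against Dp16 (9.32%, 7.11% lower) and C9, higher, in both carrier groups against WT (6.18%, 3.02% higher). A positive log2 fold change was found for 16 of 42 members in Dp16 against WT (51.4% of all genes), 21 in Dp16-2xIFNRs against WT (47.4%), 29 in Dp16-2xIFNRs against Dp16 (48.1%) and 16 in both carrier groups against WT (46.4%). DESeq2 called 0, 1, 0 and 0 of the 42, and limma on log2(RPKM + 0.1) called 0 in each. The median log2 fold change of the 42 was -0.07 in Dp16 against WT, beside 0.01 for all genes tested, and 0.01 in Dp16-2xIFNRs against WT, beside -0.03. Between Dp16-2xIFNRs and Dp16 the median was 0.11, beside -0.02 for all genes. These comparisons share libraries and are not independent of each other. In whole liver, fewer cells of a type and less RNA per cell cannot be told apart.

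**Figure D2:**
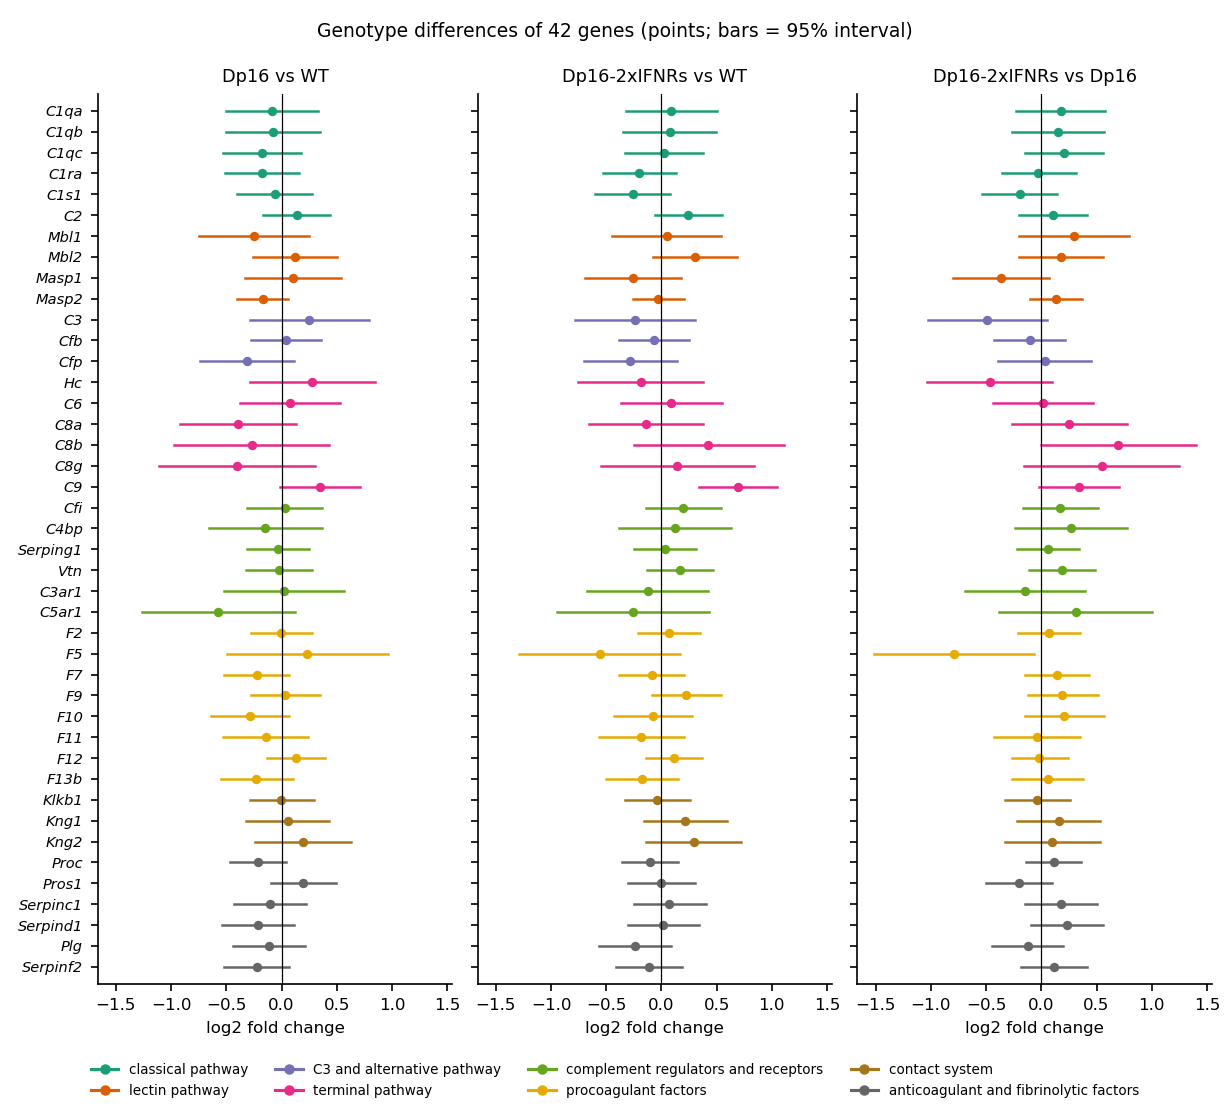
Points give the log2 fold change of each gene in 3 genotype comparisons (6 mice per group), bars its 95% interval, and colours the role. Most intervals cross 0 and all points lie between -0.79 and 0.70. Before adjustment over all genes, C9 in Dp16-2xIFNRs against WT and F5 in Dp16-2xIFNRs against Dp16 lie clear of 0.

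Among the 6 genes of the classical pathway, none reached an unadjusted p of 0.05 in a genotype comparison. C1ra, which encodes the protease C1r of the first complement component, had the smallest p in Dp16 against WT. It ranged from 140.1 to 286 CPM (median 179.7) in Dp16, from 169 to 229 CPM (median 188) in Dp16-2xIFNRs and from 191 to 290 CPM (median 217) in WT livers, a log2 difference of -0.17 (95% interval -0.51 to 0.16) for Dp16 over WT. For C2, the protease that joins C4 in the C3 convertase, Dp16 livers had 24.5 to 47.1 CPM (median 29.9), Dp16-2xIFNRs livers 28.2 to 43.2 CPM (median 35.2) and WT livers 23.4 to 42.5 CPM (median 28.5). Its log2 difference was 0.24 (-0.06 to 0.55) in Dp16-2xIFNRs and 0.19 (-0.07 to 0.45) in both carrier groups together, each over WT. C1qc, a chain of the recognition protein C1q, had a median of 67.9 CPM (61.7 to 80.4) in Dp16-2xIFNRs and 59.3 CPM (49.1 to 71.5) in Dp16 livers. The groups overlapped for each of these genes.

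The lectin pathway starts with mannose-binding lectins, Mbl1 and Mbl2, and their proteases Masp1 and Masp2, and none of these 4 genes differed by genotype at an unadjusted p of 0.05. Masp2 measured 156 to 230.4 CPM (median 167) in Dp16 and 182 to 224 CPM (median 199) in WT livers, a log2 difference of -0.17 (-0.40 to 0.06). The overlap with Tardbp applies to these values. Masp1 measured 87.9 to 127 CPM (median 109) in Dp16-2xIFNRs and 75.2 to 184 CPM (median 143) in Dp16 livers, a log2 difference of -0.36 (-0.80 to 0.07). Mbl2 differed by 0.30 (-0.08 to 0.68) on the log2 scale in Dp16-2xIFNRs over WT and by 0.21 (-0.12 to 0.54) in both carrier groups over WT, and its larger difference, by sex, is described further on.

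C3, the hub of all routes, and the alternative pathway genes Cfb (factor B) and Cfp (properdin, which stabilizes the alternative convertase) gave no genotype difference that passed. C3 ran from 2490.1 to 5429.5 CPM (median 4146) in Dp16-2xIFNRs livers and from 2029 to 8102 CPM (median 6659) in Dp16 livers. The log2 difference between them was -0.49 (-1.03 to 0.05, adjusted p = 0.555, edgeR). Cfp ran from 22.1 to 36.8 CPM (median 30.8) in Dp16, from 25.6 to 37.2 CPM (median 30.5) in Dp16-2xIFNRs and from 24.9 to 60.1 CPM (median 35.7) in WT livers. Its log2 difference was -0.31 (-0.74 to 0.11) in Dp16 and -0.28 (-0.70 to 0.14) in Dp16-2xIFNRs, each over WT, and in male libraries alone it was 0.34 and 0.16.

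In the terminal pathway, C9, the protein that polymerizes into the pore, gave the smallest genotype p of all 42 genes. C9 (ENSMUSG00000022149.17, chromosome 15, positions 6445327 to 6498751) measured 798, 800.3 and 973 CPM in Dp16 males, 777, 799.5 and 906 CPM in Dp16-2xIFNRs males and 459, 535 and 629 CPM in WT males. Female livers held 166, 179 and 231 CPM in Dp16, 313, 319 and 347 CPM in Dp16-2xIFNRs and 156, 176 and 244 CPM in WT. Every Dp16-2xIFNRs library thus exceeded every WT library of its own sex, while Dp16 libraries exceeded WT in males and overlapped WT in females. The share of all genes with genotypes apart in this way, at 3 against 3 libraries, was not counted. The log2 fold change in Dp16-2xIFNRs over WT was 0.69 (1.62-fold, SE 0.171, 95% interval 0.34 to 1.05, adjusted p = 0.141, edgeR), so C9 did not pass. It passed with DESeq2 (adjusted p = 0.0178), with only these 2 groups in the fit (0.0498) and without Dp16 libraries 4 and 5 (0.0488). In Dp16 over WT the log2 fold change was 0.35 (SE 0.171, adjusted p = 0.999), in both carrier groups over WT 0.52 (SE 0.151, adjusted p = 0.28), and in Dp16-2xIFNRs over Dp16 0.34 (-0.02 to 0.70). Sample descriptions carry a number of unstated meaning, and 11 of the 18 libraries share theirs with 1 or 2 libraries of another genotype and the same sex. Libraries with a shared number deviated together, with an estimated correlation of 0.407 over all genes. With that correlation in a limma-voom fit, C9 in Dp16-2xIFNRs over WT passed (log2 0.73, adjusted p = 0.035), and with the number as a block in edgeR, which leaves 4 residual degrees of freedom, it did not (log2 0.76, adjusted p = 0.209). In the 3 pairs of a Dp16-2xIFNRs and a WT library with the same number the log2 difference was 0.30, 1.15 and 0.58. The leading digits of the number split the libraries into 2 sets, and within these sets the log2 difference of C9 in Dp16-2xIFNRs over WT was 0.82 and 0.48. C8b, which encodes the beta chain of C8, had a log2 difference of 0.70 (0.00 to 1.40, adjusted p = 0.532, edgeR) for Dp16-2xIFNRs over Dp16. Its level ran from 161 to 777 CPM (median 404) in Dp16-2xIFNRs and from 37.6 to 958 CPM (median 293) in Dp16 livers. In male libraries alone the difference was -0.02. By mean log2 CPM, C8b differed from WT by 0.62 in Dp16 and 0.64 in Dp16-2xIFNRs males, and by -1.29 and 0.39 in females.

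Regulators and receptors also stayed below the threshold. Cfi, the protease that inactivates C3b and C4b, measured 609 to 1059.9 CPM (median 862) in Dp16-2xIFNRs and 559 to 1027 CPM (median 714) in WT livers (log2 difference 0.20, -0.14 to 0.54). Vtn measured 2505 to 3123 CPM (median 2956) in Dp16-2xIFNRs and 1703 to 3086 CPM (median 2592) in Dp16 livers (0.19, -0.11 to 0.49). The C5a receptor gene C5ar1 measured 0.486 to 2.3 CPM (median 1.44) in Dp16 and 1.45 to 3.1 CPM (median 1.95) in WT livers (-0.57, -1.26 to 0.12). At this level the interval spans more than a log2 unit.

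Of the 8 procoagulant genes, F5 had the smallest p. F5, the cofactor that factor Xa needs to activate prothrombin, measured 119 to 186 CPM (median 156) in Dp16-2xIFNRs and 77.8 to 409 CPM (median 270) in Dp16 livers. The log2 difference was -0.79 (SE 0.348, 95% interval -1.52 to -0.07, adjusted p = 0.532, edgeR), with the Dp16 libraries spread on both sides of the Dp16-2xIFNRs range. Against WT, at 102 to 357 CPM, F5 in Dp16-2xIFNRs livers differed by -0.56 (-1.29 to 0.17). F10, which encodes factor X, measured 382 to 638 CPM (median 503) in Dp16 and 477 to 905 CPM (median 615) in WT livers, a log2 difference of -0.28 (-0.64 to 0.07). F13b, the carrier subunit of the clot-stabilizing factor XIII, differed by -0.20 (-0.48 to 0.08) between both carrier groups and WT. F2, F7, F9, F11 and F12 also had an unadjusted p above 0.05 in each genotype comparison.

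The contact system and the anticoagulant and fibrinolytic genes gave no difference that passed either. Kng2, whose product releases kinins in the contact system, measured 188 to 455 CPM (median 254) in Dp16, 224 to 375 CPM (median 303) in Dp16-2xIFNRs and 182 to 344 CPM (median 231) in WT livers. Its log2 difference over WT was 0.19 (-0.24 to 0.63) in Dp16, and -0.03 without Dp16 library 4, and 0.29 (-0.14 to 0.72) in Dp16-2xIFNRs. Kng1 measured 1986 to 3099.5 CPM (median 2659) in Dp16-2xIFNRs and 1604 to 3601 CPM (median 2288) in Dp16 livers. Proc, the precursor of the anticoagulant protein C, measured 332 to 482 CPM (median 396) in Dp16 and 424 to 499.9 CPM (median 465) in WT livers, a log2 difference of -0.22 (-0.47 to 0.04). Serpind1, heparin cofactor II, measured 505 to 703 CPM (median 647) in Dp16-2xIFNRs and 400.1 to 611 CPM (median 545) in Dp16 livers (0.23, -0.09 to 0.56). Plg measured 1298 to 2071 CPM (median 1791) in Dp16-2xIFNRs and 1623 to 2643 CPM (median 2021) in WT livers (-0.24, -0.57 to 0.09). All of these groups overlapped.

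More members differed by sex than by genotype. Between the 9 male and 9 female livers, with genotype as a term, 7 of 42 members passed, 4 higher and 3 lower in males, where 6.56% of all genes tested passed (3.41% higher and 3.16% lower). C6, C8a, C8b and C9 rose in males and Mbl2, C3 and F7 fell (edgeR, adjusted p under 0.05). At an unadjusted p under 0.05 there were 16, 10 higher and 6 lower, where 18.8% of all genes lay (9.32% higher and 9.44% lower). Of the 42, 20 had a positive log2 fold change, as had 47.6% of all genes. The fold change of all 6 terminal pathway genes was positive, at a median log2 value of 2.04 beside -0.02 for all genes tested, and the 2 that did not pass were Hc, which encodes C5 (0.52, adjusted p = 0.202), and C8g (0.44). None of the 9 contact system and anticoagulant or fibrinolytic genes passed. All 9 male libraries lay above all 9 female libraries for 4 members (0.986% of all genes), and below for 1, Mbl2 (0.888%). In each genotype taken alone, the 3 males lay above the 3 females for 5 members (1.55% of all genes), which were these 4 and Masp2, and below for Mbl2 alone (1.41%).

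**Figure D3:**
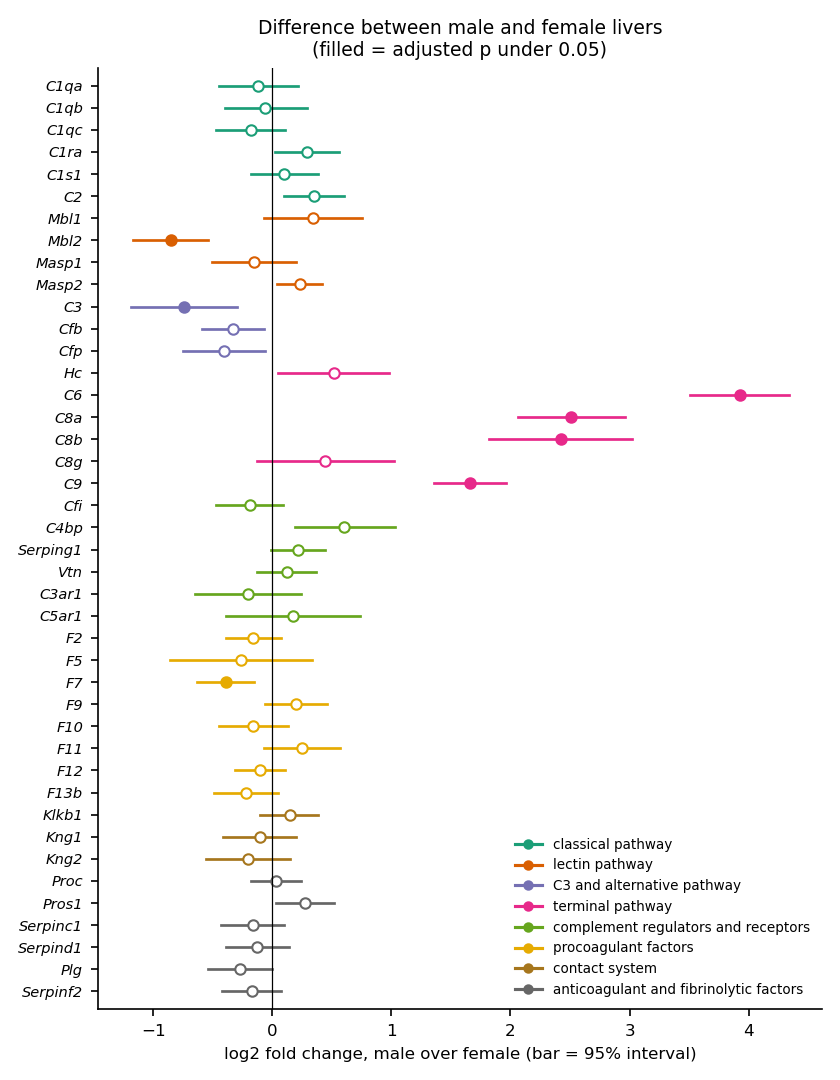
Points give the log2 fold change of male over female livers (9 against 9) for each of the 42 genes, bars the 95% interval; filled points passed at an adjusted p under 0.05. C6, C8a, C8b and C9 stand at 1.66 to 3.92, and Mbl2, C3 and F7 at -0.85 to -0.39, while the other 35 open points lie within 0.61 of 0.

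C6 (ENSMUSG00000022181.16, chromosome 15, positions 4727175 to 4814967), which joins the C5b fragment and starts assembly of the attack complex, differed most. It measured 194, 274 and 349 CPM in Dp16 males against 16.7, 17.5 and 22.6 CPM in Dp16 females. Dp16-2xIFNRs males had 211, 244 and 304 CPM, against 14.6, 20.9 and 26.2 CPM in females of that genotype. WT males had 209.9, 244 and 445 CPM, against 13.3, 13.6 and 18.6 CPM in WT females. The lowest male library stood far above the highest female library in each genotype, at a fold change of 15.2 (log2 3.92, SE 0.200, adjusted p = 7.65e-11, edgeR).

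C8a (ENSMUSG00000035031.15, chromosome 4, positions 104815679 to 104876398) encodes the alpha chain of C8, which inserts into the membrane. In Dp16 it measured 390.4 to 756 CPM in males and 59.2, 61.8 and 63.3 CPM in females. Over all genotypes males ranged from 390.4 to 756 CPM (median 478) and females from 58.6 to 171 CPM (median 97.6), with no overlap (5.69-fold, log2 2.51, SE 0.217, adjusted p = 1.09e-07). C8b (ENSMUSG00000029656.13, chromosome 4, positions 104766317 to 104804548), its neighbour, averaged 632 ± 189 CPM in males and 127 ± 62.3 CPM in females (SD, n = 9), with every male library above every female library (5.36-fold, log2 2.42, SE 0.287, adjusted p = 9.06e-06). C9 ranged from 459 to 973 CPM (median 798) in males and from 156 to 347 CPM (median 231) in females (3.17-fold, log2 1.66, SE 0.144, adjusted p = 1.08e-07). The gamma chain gene C8g did not follow: it ranged from 328 to 1029 CPM (median 589) in males and from 178 to 977 CPM (median 489) in females, overlapping in each genotype. Hc ranged from 252 to 905 CPM (median 419.6) in males and from 212 to 490.2 CPM (median 289) in females. All of these are RNA levels, and the proteins were not measured.

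The male over female difference in C6 was 3.82 in Dp16, 3.64 in Dp16-2xIFNRs and 4.24 in WT livers on the log2 scale, and 4.17 and 3.42 within the 2 sets of description numbers. For C8a it was 3.10, 2.16 and 2.31 in the 3 genotypes, for C8b 3.64, 1.98 and 1.73, and for C9 2.16, 1.34 and 1.51. Among the 6 WT libraries alone C6 passed (1 of 42 members, beside 82 of all genes), while C8a, C8b and C9 had adjusted p values of 0.0701, 0.144 and 0.0546. All 4 passed among the 6 Dp16 libraries alone and among the 6 Dp16-2xIFNRs libraries alone, and with each single library left out of the whole set.

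**Figure D4:**
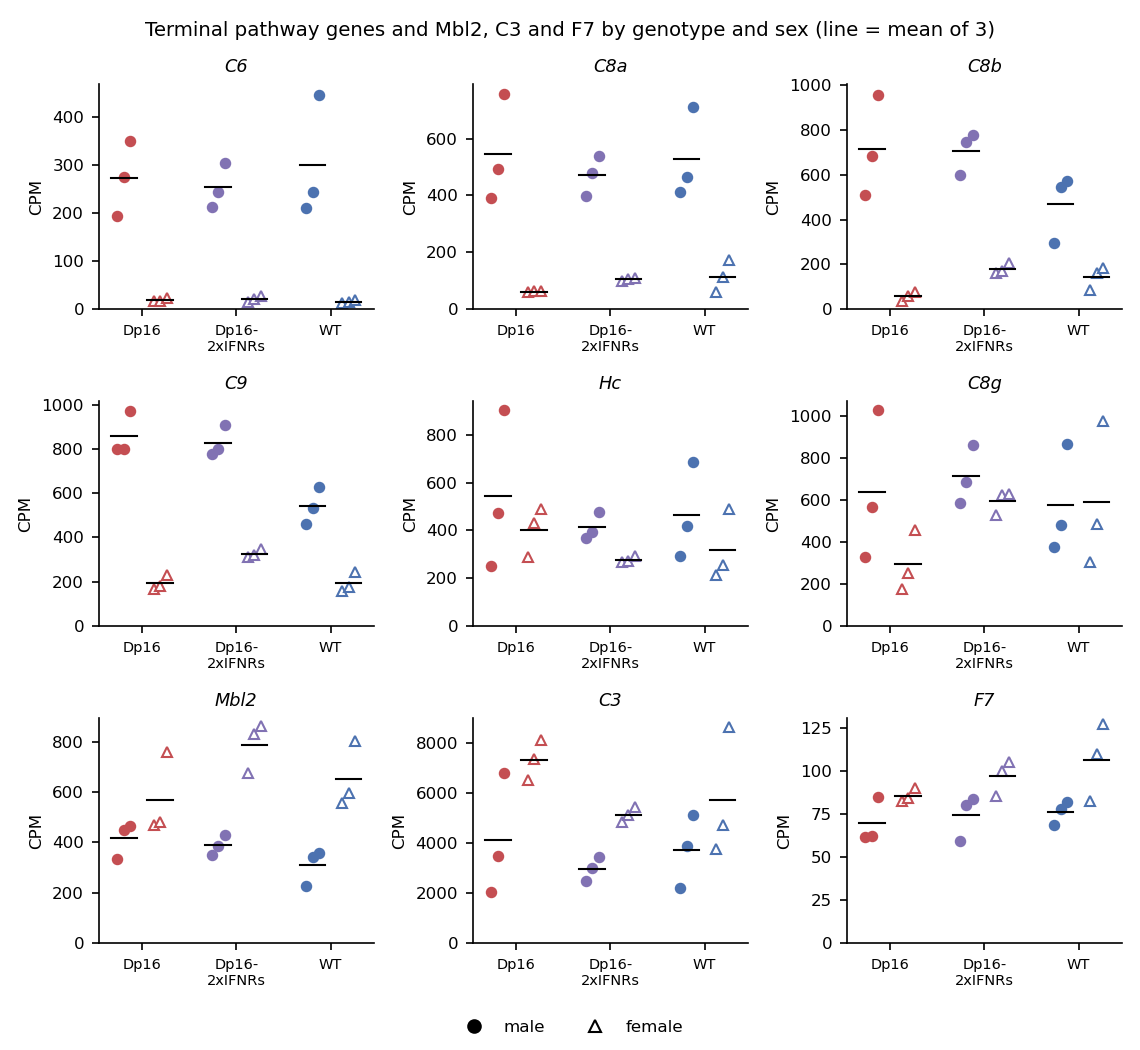
CPM of 9 genes in each library by genotype, with filled circles for males, open triangles for females and a line at the mean of 3 mice. In the panels of C6, C8a, C8b and C9 the circles lie above the triangles in each genotype, as the triangles lie above the circles for Mbl2; over the 3 genotypes, C3, F7, Hc and C8g overlap between the sexes.

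The sequences just upstream of the 5 genes whose sexes did not overlap are shown because the sexes were apart for these genes, with C6, C8a, C8b and C9 higher and Mbl2 lower in males. They are the bases before the start given by RefSeq (build GRCm38.p6), cut where GENCODE M21 places the start earlier, and read 5′ to 3′ on the gene's strand. Capitals mark matches to the STAT site TTCNNNGAA, the HNF1 motif GTTAAT, the HNF6 core ATCAAT or the HNF4 site CAAAGTCCA, searched on both strands.
C6 (chr15:4726960-4727174, plus strand): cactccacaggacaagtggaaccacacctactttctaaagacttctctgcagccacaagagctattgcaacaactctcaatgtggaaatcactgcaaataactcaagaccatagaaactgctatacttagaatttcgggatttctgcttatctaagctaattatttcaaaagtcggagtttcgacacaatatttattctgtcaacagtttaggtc
C8a (chr4:104876399-104876648, minus strand): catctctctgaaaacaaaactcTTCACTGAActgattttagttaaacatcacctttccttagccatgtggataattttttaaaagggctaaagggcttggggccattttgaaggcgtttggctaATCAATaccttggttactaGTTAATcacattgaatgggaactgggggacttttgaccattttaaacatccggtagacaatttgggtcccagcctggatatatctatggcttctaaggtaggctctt
C8b (chr4:104766067-104766316, plus strand): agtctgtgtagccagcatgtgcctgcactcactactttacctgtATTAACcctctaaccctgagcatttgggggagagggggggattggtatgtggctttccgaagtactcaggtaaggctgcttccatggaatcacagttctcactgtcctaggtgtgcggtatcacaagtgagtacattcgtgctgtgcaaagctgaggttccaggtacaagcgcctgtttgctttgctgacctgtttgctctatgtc
C9 (chr15:6445096-6445326, plus strand): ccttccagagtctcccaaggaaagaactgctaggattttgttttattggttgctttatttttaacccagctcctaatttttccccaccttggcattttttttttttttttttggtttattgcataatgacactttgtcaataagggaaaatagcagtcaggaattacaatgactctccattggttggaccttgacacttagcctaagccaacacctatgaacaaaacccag
Mbl2 (chr19:30232678-30232927, plus strand): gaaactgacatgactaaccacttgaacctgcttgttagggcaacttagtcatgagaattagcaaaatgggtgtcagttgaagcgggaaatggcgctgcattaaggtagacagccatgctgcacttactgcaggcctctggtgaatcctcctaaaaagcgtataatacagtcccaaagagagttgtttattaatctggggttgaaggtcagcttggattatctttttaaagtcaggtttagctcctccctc
In C8a the first capitals are a STAT match, the next an HNF6 core and the last an HNF1 motif, and in C8b the capitals are an HNF1 motif read on the other strand. The windows of C6, C9 and Mbl2 held none of these letters. Of the 33 members with an entry in the table of promoters, 4 held the STAT site (12.1%), 8 the HNF1 motif (24.2%), 5 the HNF6 core (15.2%) and 0 the HNF4 site. Over all 32851 windows of 250 bases the shares were 7.02%, 6.43%, 6.72% and 0.384%. A match is a run of letters, and binding was not measured.

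Mbl2 (ENSMUSG00000024863.6, chromosome 19, positions 30232942 to 30239687), a lectin that recognizes microbial sugars, was the member lower in every male than in every female. It measured 333, 449 and 464 CPM in Dp16 males against 467, 482 and 760.3 CPM in Dp16 females. Dp16-2xIFNRs males had 350.5, 385 and 429 CPM, against 676, 829.8 and 860.4 CPM in females, and WT males had 227, 342 and 358 CPM, against 558, 595 and 802 CPM in females. It fell by 0.85 on the log2 scale in males (0.554-fold, SE 0.150, adjusted p = 0.000882, edgeR), but did not pass among the 6 WT libraries alone (adjusted p = 0.219) or the 6 Dp16 libraries alone (0.546). Its relative Mbl1 overlapped between the sexes, with a log2 difference of 0.34. Masp2 had a log2 difference of 0.23 that did not pass (adjusted p = 0.155), with the exon overlap given above.

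C3 (ENSMUSG00000024164.15, chromosome 17, positions 57203970 to 57228136) fell to 3601 ± 1533 CPM in males, against 6051 ± 1685 CPM in females (SD, n = 9), with overlap in Dp16 and WT livers. Its log2 fold change was -0.74 (SE 0.213, adjusted p = 0.0403, edgeR). The call was lost when any 1 Dp16-2xIFNRs library, WT library 2, 4 or 5, or Dp16 library 1, 2, 5 or 6 was left out, with adjusted p values of up to 0.0995 and log2 fold changes of -0.78 to -0.64, and without Dp16 libraries 4 and 5 together (0.0615). F7 (ENSMUSG00000031443.7, chromosome 8, positions 13026034 to 13035809), which encodes the factor that starts clotting with tissue factor, fell to 73.3 ± 10.3 CPM in males, against 96.3 ± 15.5 CPM in females (SD, n = 9). Its log2 fold change was -0.39 (SE 0.114, adjusted p = 0.0458), and without WT library 1, 2, 4, 5 or 6, Dp16-2xIFNRs library 1, 2, 4 or 5, or Dp16 library 1, 2, 4, 5 or 6 the adjusted p was up to 0.093. The F7 call was also lost with DESeq2 size factors (adjusted p = 0.0541), without the low count filter (0.115), with a replicate block (0.127) and without Dp16 libraries 4 and 5 (0.0746). F10, the neighbour of F7 on chromosome 8 at a gap of 1498 bases, had a log2 difference of -0.16 (-0.45 to 0.13). C4bp, a cofactor for Cfi, had 506 to 1259.6 CPM (median 771) in males and 281 to 833 CPM (median 494) in females, a log2 difference of 0.61 (SE 0.201, adjusted p = 0.0825). It passed without WT library 6 (adjusted p = 0.0194), with DESeq2 (0.0385), with the replicate block (0.0117) and with the set of description numbers as a term (0.0271).

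Other genes of the same systems were counted from lists chosen with earlier results of these data known. For comparison, 3.41% of all genes rose and 3.16% fell in males. Of 25 other complement genes tested, 3 rose and 2 fell in males. Cfd, the protease factor D of the alternative pathway, had 1.17 to 19.1 CPM (median 6.62) in males and 0 to 0.305 CPM (median 0.0202) in females, where its fitted fold change rests on few counts. Colec10, a collectin that binds sugars, fell to 16.8 to 21.7 CPM (median 18.8) in males, against 22.2 to 35.8 CPM (median 27.5) in females (log2 -0.59, adjusted p = 0.00141, edgeR), and so did the ficolin gene Fcna (log2 -0.46, adjusted p = 0.00824). Of 25 other coagulation and fibrinolysis genes tested, 3 rose in males and none fell. Serpine2, a thrombin inhibitor, had 7.35 to 18.6 CPM (median 12.0) in males and 1.63 to 3.85 CPM (median 2.90) in females (log2 2.18, SE 0.185, adjusted p = 8.5e-08, edgeR). F2r, a thrombin receptor, had 13.6 to 39.1 CPM (median 23.1) in males and 10.8 to 19.9 CPM (median 14.8) in females, a log2 rise of 0.71. None of the 3 vitamin K cycle genes passed.

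Of 15 liver transcription factors 1 rose in males and 1 fell. Cux2, a repressor known for its female-biased level in mouse liver, fell to 0 to 0.699 CPM in males, against 16.0 to 35.8 CPM in females. Of 14 acute phase genes, the liver proteins of inflammation, 3 rose in males and 1 fell, among them the haptoglobin gene Hp, higher by 0.75 on the log2 scale, and Itih4, at -0.61. The others that passed, outside the 8 smallest p and named after their values were seen, were C4a (0.67), Serpina5, at 0.0976 to 3.02 CPM in males and 0 to 0.162 CPM in females, Saa1 (1.61), Saa4 (0.48), Clu, which encodes the terminal complex inhibitor clusterin (0.42), and Onecut1. Onecut1, which encodes HNF6, had 3.06 to 50.7 CPM (median 11.4) in males and 1.61 to 9.5 CPM (median 4.04) in females (log2 1.96, adjusted p = 0.0227, edgeR).

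By genotype, the genes of these lists that passed were C4a, lower than in WT by a log2 value of -1.57 in Dp16 and -1.77 in Dp16-2xIFNRs livers, and Fcna, at -0.84 in Dp16-2xIFNRs over WT; both also passed in the carrier groups together. Fcna is also 1 of the 10 Kupffer cell markers measured, of which 9 had a negative log2 difference in Dp16-2xIFNRs over WT (median -0.23) and 10 in males over females (median -0.26), and the part of macrophage number in its values was not tested. Reads of C4a and its close copy C4b may be assigned to either gene. For Dp16-2xIFNRs over Dp16 none passed, and the smallest p values were those of C4b at -0.76 and the transcription factor gene Stat3 at -0.68 (adjusted p = 0.532 each).

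A last question was whether the genotype effects differed between the sexes, tested with an interaction term in edgeR on 3 mice per sex and genotype. No member passed for either genotype, nor did any gene (0% called), while DESeq2 called 3 members (Cfp, C8b and C1qa) among 52 genes for the Dp16 effect, and 0 members among 10 genes for the Dp16-2xIFNRs effect. Of the 42, 30 had a positive difference for the Dp16 effect, as had 48.5% of all genes, and 19 for the Dp16-2xIFNRs effect, as had 48.1%. At an unadjusted p under 0.05, the log2 difference of Dp16 over WT was higher in males than in females for 12 of 42 members. It was lower for none, beside 4.69% of all genes in the first direction and 7.88% in either. These are signed values: C8b had 0.62 in males and -1.29 in females, and C9 had 0.67 and 0.01. The 12 members were Cfp, C8b, C1qa, C1qc, C1qb, Kng2, Kng1, Cfi, Serpind1, C9, C4bp and F10, and they are named here after their values were seen. Without Dp16 libraries 4 and 5 the number of members at an unadjusted p under 0.05, in either direction, was 6. The number over all genes also fell in that setting, in similar proportion, so the drop was not particular to the members. The median log2 difference between the effects was 0.44 over the 42, beside -0.04 over all genes. For the Dp16-2xIFNRs effect, measured against the same WT mice, 3 members reached an unadjusted p under 0.05 (Cfp 0.79, C1qa 0.67 and F11 -0.76), where 2.24% of all genes did.

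Of these 12, Cfp, C1qa, C1qb and C1qc are expressed mainly by macrophages. Cfp measured 22.1, 36.7 and 36.8 CPM in Dp16 males against 24.9, 25.2 and 25.9 CPM in WT males, and 23.6, 29.2 and 32.3 CPM in Dp16 females against 45.5, 56.2 and 60.1 CPM in WT females. Dp16 females thus lay below all WT females, and Dp16 males on both sides of WT males. The share of all genes that separate in this way was not counted. The difference between the effects was 1.26 on the log2 scale (SE 0.294, adjusted p = 0.388, edgeR; 0.0196 with DESeq2; 1.02 without Dp16 libraries 4 and 5). C1qa measured 61.4, 103 and 104 CPM in Dp16 males against 57.3, 63.6 and 68.2 CPM in WT males, and 57.9, 68.9 and 71.1 CPM in Dp16 females against 80.6, 114 and 119 CPM in WT females (difference 1.17, SE 0.301, adjusted p = 0.441; 0.0435 with DESeq2). C1qb and C1qc, which encode the other chains of C1q, differed by 1.12 and 0.95. All 10 markers of Kupffer cells, the resident macrophages of the liver, were measured and none was at 0. Their summed level was 301 to 383 CPM in Dp16 males and 273 to 348 CPM in WT males, and 270.3 to 401 CPM in Dp16 females and 440.3 to 599 CPM in WT females. In Dp16-2xIFNRs it was 258 to 336 CPM in males and 319.5 to 344 CPM in females. The marker sum was highest in WT females, which also held the highest single values of Cfp and C1qa. For 9 of the 10 markers the log2 difference of Dp16 over WT was higher in males than in females (48.5% of all genes). The log2 difference of Dp16-2xIFNRs over the same WT mice was higher in males for all 10 (48.1% of all genes). The part of macrophage number in these values was not tested.

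Members made by hepatocytes stood on the same list. C8b measured 510.3, 685 and 958 CPM in Dp16 males against 293, 545 and 574 CPM in WT males, and 37.6, 60.1 and 76.5 CPM in Dp16 females against 83.6, 163 and 185 CPM in WT females. All Dp16 females lay below all WT females, a separation whose share over all genes was not counted. Dp16 males overlapped WT males (difference between the effects 1.92, SE 0.475, adjusted p = 0.419 with edgeR and 0.0299 with DESeq2). Kng1 measured 2281, 2295 and 3601 CPM in Dp16 males against 1846, 1991 and 2077 CPM in WT males, and 1604, 2009.5 and 2319.6 CPM in Dp16 females against 2381, 2685 and 2729 CPM in WT females. The difference for Kng1 was 0.86 (SE 0.292, adjusted p = 0.582), and it was 0.47 without Dp16 libraries 4 and 5, of which library 4 holds the value of 3601 CPM. The hepatocyte marker sum was 89320.1 to 113801 CPM in Dp16 males against 81455 to 92565 CPM in WT males, and 75839 to 115971 CPM in Dp16 females against 110330.2 to 120992 CPM in WT females, and its part in these values was not tested.

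**Figure D5:**
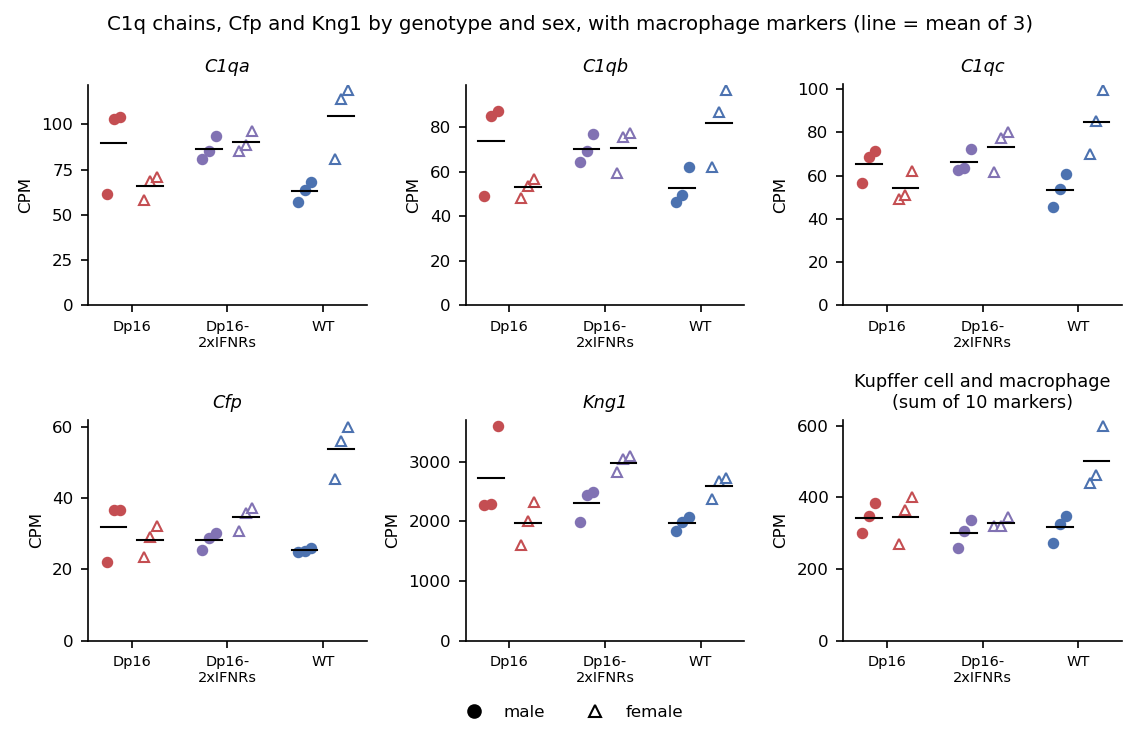
CPM of the C1q chains, Cfp and Kng1 and the summed CPM of 10 Kupffer cell markers in each library, by genotype and sex, with a line at the mean of 3 mice. WT females lie highest for Cfp (45.5 to 60.1 CPM) and for the marker sum (440.3 to 599 CPM).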

How the data were processed

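Polyadenylated RNA from 18 mouse livers was prepared as strand-specific paired-end libraries, per the labels' protocols. Tools listed in the submitters' processing notes are HISAT2 2.1.0, HTSeq 0.6.1, SAMtools 1.5, FastQC 0.11.5 and bcl2fastq, with the build GRCm38. Neither the strand setting nor how shared reads were counted is stated. The authors deposited whole-number counts per gene, and RPKM values that equal those counts divided by gene length and column total, which was checked on the files.

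Counts were tested with edgeR 4.0.16 (R 4.3.3): TMM scaling, filterByExpr by group (15208 of 55385 genes kept), robust quasi-likelihood fit with group and sex, all 18 libraries, Benjamini-Hochberg adjustment over all genes, called at an adjusted p under 0.05. Interaction terms tested sex differences of the genotype effects. CPM are TMM-scaled; RPKM served for levels between genes. The fit was tested on simulated data. Alternatives were DESeq2 1.42.0, DESeq2 size factors, other count filters, limma 3.58.1 on log2(RPKM + 0.1 or 1), a replicate block, the leading digits of the description number as a term, subsets of groups or sexes, and libraries left out; within-genotype sex fits and the interaction fits with other size factors or without Dp16 libraries 4 and 5, and the fits with the whole description number as a block (in edgeR, or in limma-voom with an estimated correlation), were added after the data were seen. Positions, exon bases and exon overlaps came from GENCODE M21, while the deposited values carry the name of a later release. Upstream sequences came from RefSeq.

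The members and lists were chosen with earlier results of these data known. Values were given for members that passed; in each genotype comparison, for the members of each role with an unadjusted p under 0.05 or else the smallest p; and by sex for the 8 smallest p. Of other pathway genes, those that passed were named, or else those with the smallest p.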

Additional observations from a re-analysis of the deposited data

Results flagged for a closer look

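Of 126 sets of 6 libraries (42 genes in 3 genotypes), 9 held 1 library far from the other 5 by Dixon's criterion. Its nominal rate is about 1 in 20 for values of a single normal population. Each set here mixed 3 males and 3 females, and the genes share libraries, so that rate is a rough guide only. Dp16 library 4, a male with the lowest TMM factor, was the highest of its group for 3 genes. It held 3601 CPM of Kng1, beside 1604 to 2319.6 CPM in the other Dp16 libraries, 455 CPM of Kng2, beside 188 to 287 CPM, and 298 CPM of F9, beside 148 to 185 CPM. Dp16 library 3 held 905 CPM of Hc, beside 252 to 490.2 CPM. Dp16 library 6, a female, held 760.3 CPM of Mbl2, beside 333 to 482 CPM.

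In Dp16-2xIFNRs, library 1 held 282 CPM of C1s1, beside 224 to 244 CPM, and library 3 held 240.5 CPM of F9, beside 202 to 215 CPM. WT library 1 held 42.5 CPM of C2, beside 23.4 to 30.2 CPM, and WT library 6 held 897 CPM of Serpind1, beside 506 to 616 CPM.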

How the results depend on the processing

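In Dp16-2xIFNRs over WT 0 members passed, but 1 (C9) passed with DESeq2, with only the 2 groups compared, without Dp16 libraries 4 and 5, and in limma-voom with the description number as a random block. Between males and females 7 members passed, beside 998 of all genes. The number was 11 with limma on log2(RPKM + 0.1) (1214 of all genes) and 4 among Dp16 libraries alone (63 of all genes). It was 1 among WT libraries alone (82 of all genes), and 5 to 8 with 1 library left out (788 to 1116 of all genes). For the Dp16 effect by sex, where 0 passed, it was 3 (Cfp, C8b and C1qa) with DESeq2, which called 52 of all genes there and 10 for the Dp16-2xIFNRs effect by sex, against 0 for each in edgeR. The other genotype counts stayed at 0, also with each library left out or the description number as a block. The 7 members that differed by sex also passed in limma-voom with that random block. Over all genes DESeq2 called 72 in place of 6 for Dp16 over WT, 127 in place of 15 for Dp16-2xIFNRs over WT, 7 in place of 0 for Dp16-2xIFNRs over Dp16, 137 in place of 31 for both carrier groups over WT, and 1535 in place of 998 for male over female. With 1 library left out these counts ran from 1 to 9, 4 to 48 and 4 to 47 in Dp16, Dp16-2xIFNRs and both carrier groups over WT. The causes were not tested.

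Of 1656 recomputed values of named members, 1591 kept direction and side of the threshold, 42 no longer passed, 11 passed only under the alternative and 12 turned in direction. In male libraries alone, log2 differences turned for Cfp (0.34 in Dp16, 0.16 in Dp16-2xIFNRs and 0.25 in both carrier groups, over WT), F10 (0.053 in Dp16 over WT), and, in Dp16-2xIFNRs over Dp16, C8b (-0.024), Vtn (-0.061), Kng1 (-0.24) and Serpind1 (-0.047). In female libraries alone they turned for C9 (-0.002 in Dp16 over WT) and Kng2 (-0.34 in Dp16, -0.053 in both carrier groups, over WT), and with 1 library left out Kng2 in Dp16 over WT ran from -0.031 (without Dp16 library 4) to 0.325.

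Of 18 pairs of libraries with the same replicate number, 8 correlated over 0.1 (-0.449 to 0.342). These 8 were the pairs of the same sex, and all pairs of opposite sex had a negative correlation. Sex was not taken out before correlating, so these values cannot decide whether replicate numbers pair the mice. With the number as a replicate block 8 members passed between the sexes, as did 1281 of all genes in place of 998. For the Dp16 effect by sex, 3 members in place of 12 had an unadjusted p under 0.05. Over all genes this number also fell, to 484 in place of 1198. C5ar1 and C3ar1 had the lowest levels of the 42, which limits the precision of their differences.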

Other observations

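Ratios of related members within a library differed in how far they varied. C1qa over C1qc, in RPKM, ran from 1.25 to 1.73 in Dp16, from 1.33 to 1.60 in Dp16-2xIFNRs and from 1.09 to 1.74 in WT livers. Kng1 over Kng2, neighbours with related sequence whose shared reads may be assigned to either gene, ran from 6.38 to 7.31, from 6.53 to 7.43 and from 6.40 to 8.16 in the same groups. The ratio of C8g to C8a, chains of 1 protein, varied far more, from 1.17 to 19.5 in Dp16, from 2.96 to 15.8 in Dp16-2xIFNRs and from 1.43 to 23.6 in WT livers.

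Acute phase genes, the liver proteins that change in inflammation, had a median difference of 1.12 on the log2 scale between the Dp16 effects in males and females over 14 genes, beside -0.04 over all genes. At an unadjusted p under 0.05 there were 6 of 14, all with the higher log2 difference of Dp16 over WT in males, where 4.69% of all genes lay. The smallest p was that of Saa1, at 2.48 (adjusted p = 0.532, edgeR), and none passed. For the Dp16-2xIFNRs effect, measured against the same WT mice, the median over the 14 genes was 0.66, beside -0.02 over all genes. Of the 14, 12 were positive (48.1% of all genes) and 4 had an unadjusted p under 0.05 (2.24% of all genes).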
